A study of Mus musculus with 48 samples.

Results

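Mouse embryonic stem cells with a single X chromosome and no Y (XO) were compared after 66, 72 and 84 h of differentiation with the same cells at 0 h. The comparison used 5 of the 48 arrays of the series, of which 3 were late arrays and 2 were the replicate arrays A and B of 0 h. The arrays were chosen by line and time alone, and the change of each gene was the mean of the late arrays minus the mean of the 0 h arrays, over all 22745 genes. The late XO cells, labelled Pgk12.1, had been moved to fibronectin-coated wells in N2B27 medium with Activin A and basic Fgf, changed daily. The XO cells at 0 h, also Pgk12.1, were kept in N2B27 medium with the Gsk3 inhibitor CT-99021, the Mek1 inhibitor PD-0325901 and the cytokine LIF, to which all lines had been adapted. XO cells at 36 h (2 arrays), late and 0 h XX cells of Pgk12.1 (3 and 2 arrays) and late and 0 h XY cells of the line E14 (2 arrays each, the late ones at 72 and 84 h) were used for comparison. The labels do not say how the XO cells were derived, whether they are 1 clone, or whether arrays A and B came from separate cultures. P-values therefore measure the spread between these arrays, which may be technical. In the late groups, whose arrays differ in time, the spread also holds change with time.

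Stem cells held with inhibitors of Gsk3 and Mek and with LIF are in a naive state, which resembles the epiblast of the embryo before implantation. When these inhibitors are removed and Activin and Fgf are given, the cells pass through a formative phase to a primed state, which resembles the epiblast after implantation and from which epiblast stem cells are derived. On this path transcription factors of the naive network are known to be shut off and epiblast genes to be turned on, while the core pluripotency factors stay active. The deposited rows are Ensembl gene identifiers, which the files and the reference table used here do not pair with gene names (0 of 22745 matched). The identity of the cells could therefore not be set against marker genes. Genes are described below by the size, time and line of their change, with 2 identifiers printed per direction. In bulk samples of this kind, fewer cells that express a gene and less RNA of it per cell cannot be told apart.

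The values were log2 expression values on Affymetrix Mouse Exon 1.0 ST arrays, so that a change of 1 is a doubling or a halving. Array medians were 7.01, 7.10 and 7.09 log2 units at 66, 72 and 84 h, against 6.84 and 6.91 at 0 h, so all 3 late arrays lay above both 0 h arrays. The median change of all genes was 0.095 log2 units, and centring each array on its own median turned this to -0.10, a shift of -0.196. Directions of small changes, and the balance between rising and falling genes, depend on this offset. Depth does not apply to arrays, and the number of arrays limits the precision. The median standard error of a late minus 0 h change was 0.208 log2 units.

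XO cells changed widely between 0 h and the late times. In the late arrays 4054 genes were higher than at 0 h (17.8% of all genes) and 1733 were lower (7.62%), 5787 in all (limma, adjusted p under 0.05). After centring the numbers were 2637 higher and 2813 lower, and after quantile normalization 2973 and 2558, so the excess of rising genes rests on the scaling. Genes that rose by at least 1 log2 unit are called strong risers here and numbered 1749, and those that fell by as much, strong fallers, numbered 855. With centred arrays these groups held 1260 and 1192 genes. All 3 late arrays lay above both 0 h arrays for 31.9% of all genes and below both for 16.5%. For strong risers and fallers this separation held in 1742 and 853 genes, which their choice on the same arrays nearly fixes. The count of called genes dropped to 3649 without 0 h array A and to 3640 without array B.

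The size of the change was graded. Among strong risers, 1337 rose by 1 to 2 log2 units, 267 by 2 to 3, 115 by 3 to 4 and 30 by at least 4. Among strong fallers, 599 fell by 1 to 2 log2 units, 166 by 2 to 3, 57 by 3 to 4 and 33 by at least 4. The strong risers had a median change of 1.49, or 1.40 relative to the median of all genes, with quartiles of 1.19 and 1.96. The strong fallers had a median change of -1.53, or -1.62 relative to all genes, with quartiles of -2.17 and -1.21. Median levels of the 30 largest risers were 9.90 log2 units in late cells and 5.04 at 0 h, and those of the 33 largest fallers were 5.16 in late cells and 10.09 at 0 h.

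**Figure D1:**
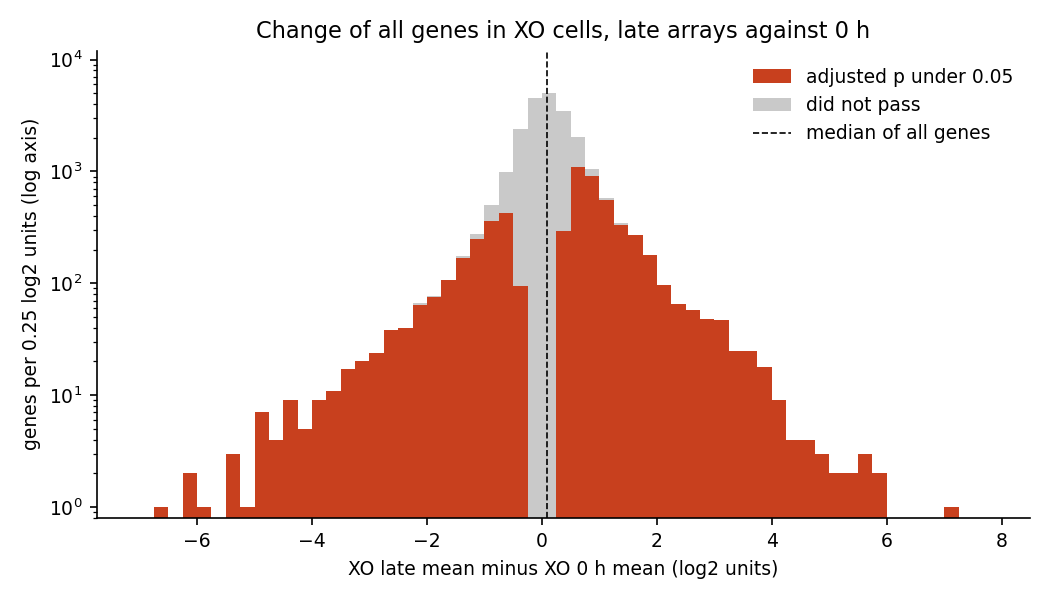
Number of genes (log axis, bins of 0.25 log2 units) by late minus 0 h change in XO cells. The coloured part of each bar counts genes past the threshold, the grey part those that did not pass, and the dashed line marks the median of all genes at 0.095. Changes ran from -6.55 to 7.25 log2 units.

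The identifier with the largest rise, ENSMUSG00000000805, stood at 12.65, 12.68 and 12.63 log2 units at 66, 72 and 84 h, against 5.51 and 5.30 at 0 h. Its late values were nearly equal and far above both 0 h values, with means of 12.65 ± 0.022 (SD, n = 3) and 5.41 ± 0.15 (SD, n = 2). The change was 7.25 (SE 0.21, limma adjusted p = 1.00e-10). In the XO course it was at 5.36 at 6 h, stood at 6.51 at 12 h and 9.94 at 24 h, and was between 11.73 and 12.55 from 40 to 60 h. It was still higher in late cells than at 36 h, by 1.44 (SE 0.21, limma adjusted p = 4.30e-04).

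ENSMUSG00000022425 had the second largest rise, with 8.77, 10.46 and 10.48 log2 units at 66, 72 and 84 h, against 3.97 and 3.96 at 0 h. The 66 h value lay well below the other late values, so the late mean of 9.91 ± 0.98 (SD, n = 3) carries a wide spread beside the 0 h mean of 3.96 ± 0.0029 (SD, n = 2). The change was 5.94 (SE 0.46, limma adjusted p = 3.43e-07). This gene did not climb steadily. It stood at 9.70 at 32 h, stood between 8.16 and 9.02 from 40 to 60 h, and was above 10 only at 72 and 84 h. Against 36 h the late mean differed by 0.38 (SE 0.46, limma adjusted p = 0.707), which did not pass.

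The largest fall was that of ENSMUSG00000067299, with 4.52, 5.04 and 4.65 log2 units at 66, 72 and 84 h, against 11.63 and 10.94 at 0 h. Its late mean was 4.74 ± 0.27 (SD, n = 3) and its 0 h mean 11.29 ± 0.49 (SD, n = 2), a change of -6.55 (SE 0.26, limma adjusted p = 7.16e-10). It was at 11.41 at 6 h and declined through 8.92 at 24 h and 5.71 at 40 h to between 4.11 and 4.76 from 44 to 60 h. The late mean was lower than at 36 h, with a change of -1.53 (SE 0.26, limma adjusted p = 0.00143).

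ENSMUSG00000042367 fell to 4.87, 5.42 and 5.57 log2 units at 66, 72 and 84 h, against 11.35 and 11.54 at 0 h. The means were 5.29 ± 0.37 (SD, n = 3) and 11.44 ± 0.13 (SD, n = 2), and the change was -6.16 (SE 0.31, limma adjusted p = 8.59e-09). Unlike the gene before it, this one was already at 10.48 at 6 h and had come down to 5.17 at 32 h. From then to 84 h it varied between 4.70 and 5.94, and the late mean against 36 h gave 0.40 (SE 0.31, limma adjusted p = 0.512).

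**Figure D2:**
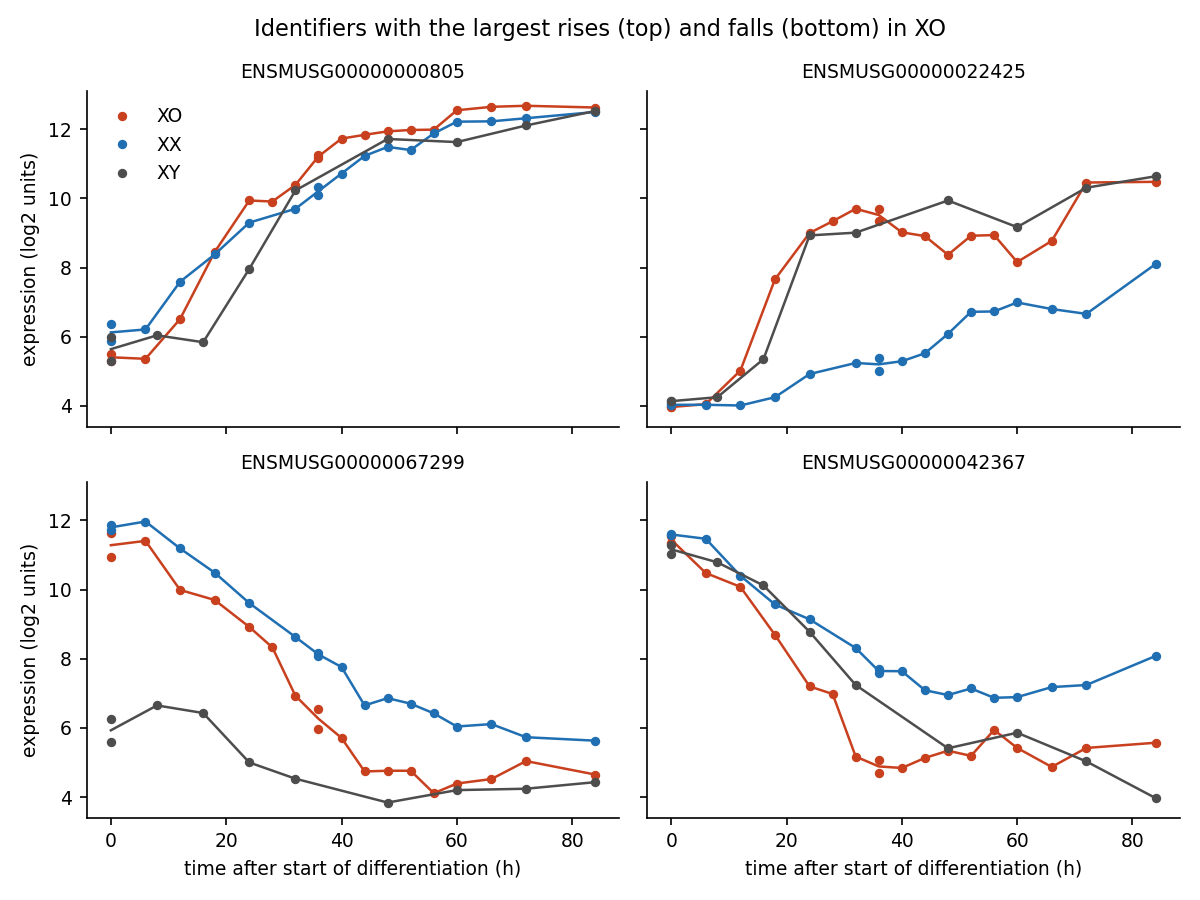
Expression (log2 units) of the identifiers with the largest rises (top row) and falls (bottom row) in XO cells, against time in h. Points are arrays and lines join the mean at each time for XO, XX and XY. ENSMUSG00000000805 ends at late means of 12.65 in XO, 12.35 in XX and 12.32 in XY, ENSMUSG00000022425 stays lower in XX, and ENSMUSG00000067299 starts at 5.93 in XY.

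The late arrays also differed among themselves. Between 66 and 72 h 853 genes were apart by at least 1 log2 unit, and between 72 and 84 h 520 were, beside 261 between the replicates at 0 h and 384 between those at 36 h. The correlation across genes, which are not independent replicates, was 0.976 between 66 and 72 h and 0.984 between 72 and 84 h, beside 0.988 and 0.985 for the replicate pairs at 0 and 36 h. The 66 h array correlated with those of 36 h at 0.965 and 0.961, and the 72 h array at 0.954 with each. The array at 66 h thus stood between those of 36 h and the later arrays. Those of 72 and 84 h correlated much like replicates, but more genes were apart between them than between either replicate pair. Each late time has 1 array, so these differences have no replicate check. Interquartile ranges of the arrays moved with them, at 2.93, 3.21 and 3.28 log2 units at 66, 72 and 84 h, and their part in these differences was not tested.

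The strong risers and strong fallers were also read at each time of the late window. The median change of the strong risers was 1.27 at 66 h, 1.63 at 72 h and 1.62 at 84 h, while all genes had 0.10, 0.11 and 0.11. At 84 h 660 of the 1749 strong risers (37.7%) were at least 0.5 log2 units farther from 0 h than at 66 h, and 55 were nearer by as much. The median change of the strong fallers was -1.67 at 66 h, -1.47 at 72 h and -1.56 at 84 h. Of these 855 genes, 89 (10.4%) were farther and 184 (21.5%) nearer at 84 h than at 66 h. Among all genes, 17.6% were higher and 11.7% lower at 84 h by that margin. The median of the strong risers was thus farther from 0 h at 72 and 84 h than at 66 h. That of the fallers was lowest, -1.82, at 60 h. From 66 to 84 h the riser median moved by 0.36, and by 0.28 after centring and 0.23 after quantile normalization. For fallers these values were 0.11, 0.030 and 0.063. Both groups were chosen on the mean of these late arrays, 1 per time, and the contrast between them was not tested.

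Over the whole course the strong risers had moved in part by 36 h. Their median change was 0.22 at 6 h, 0.17 at 12 h, 0.69 at 24 h, 0.85 and 0.93 in the 36 h arrays, 1.17 at 48 h, 0.97 at 52 h, 1.16 at 56 h and 1.13 at 60 h. The lower value at 52 h is that of a single array. The arrays at 52, 56 and 60 h had narrow interquartile ranges, of 2.81, 2.90 and 2.77 log2 units, whose part in these medians was not tested. The strong fallers had a median change of -0.22 at 6 h, -0.48 at 12 h, -0.59 at 24 h, -1.15 and -1.07 at 36 h, -1.39 at 48 h and -1.69 at 52 h. These medians share the 0 h arrays that helped to choose the genes, so they describe the course and test nothing.

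**Figure D3:**
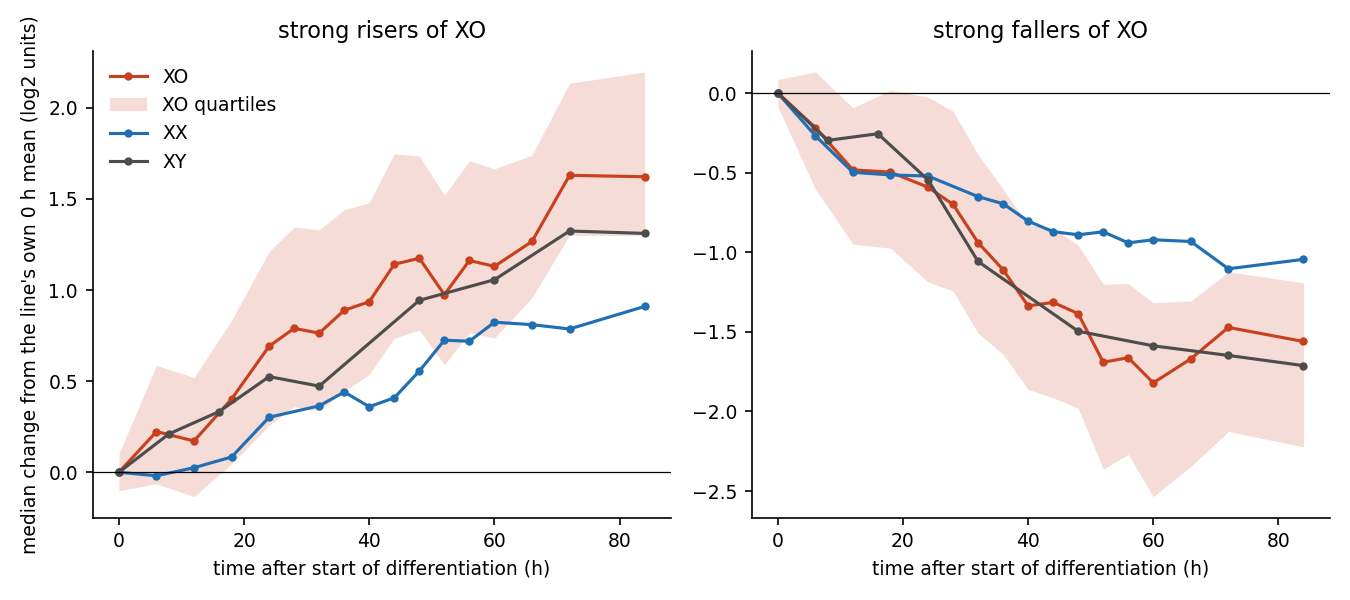
Median change from the line's own 0 h mean (log2 units) of the 1749 strong risers and 855 strong fallers chosen in XO, against time in h. Points are medians over genes, averaged where a time has 2 arrays, for XO, XX and XY, and the band spans the quartiles of XO. The XO risers step up between 66 and 72 h, the XO fallers are lowest at 60 h, and XX lies nearer to 0 than XO in both groups from 66 h.

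The time at which a gene first reached 50% of its late change spread over the whole course. By interpolation between arrays, 421 strong risers (24.1%) first reached it by 12 h, 478 (27.3%) between 12 and 24 h, 332 between 24 and 36 h, 332 between 36 and 48 h and 175 (10.0%) between 48 and 66 h. The median was 23.5 h, with quartiles of 12.7 and 39.3 h. Among strong fallers 291 (34.0%) did so by 12 h, 133 (15.6%) between 12 and 24 h, 192 (22.5%) between 24 and 36 h, 154 (18.0%) between 36 and 48 h and 84 (9.82%) between 48 and 66 h. Their median was 24.1 h, with quartiles of 9.38 and 37.6 h. First crossings therefore had nearly the same median time in risers and fallers.

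Many genes crossed back. Of the strong risers 826 (47.2%) returned below the 50% mark after first reaching it or, for 11 of them, did not reach it by 66 h. Among strong fallers these numbers were 215 (25.1%) and 1, and the difference was not tested. Counted from the time after which they stayed beyond the mark up to 66 h, the median was 40.9 h for risers and 32.5 h for fallers. These medians leave out 63 risers and 8 fallers that were not beyond the mark at 66 h. By this count 718 risers (41.1%) reached it only between 48 and 66 h. Without the arrays at 52, 56 and 60 h the medians were 35.4 h for risers and 31.0 h for fallers, so the gap between them was smaller. Most times of the course have 1 array, so a crossing of a single gene has no replicate check. For larger changes the mark lies farther from the 0 h level, and the part of this in the crossings back was not tested. Of the 30 genes that rose by at least 4 log2 units 15 reached 50% by 24 h, 8 between 24 and 36 h and 7 later, and 1 crossed back. Of the 33 that fell by as much these numbers were 9, 16 and 8, and 3 crossed back.

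**Figure D4:**
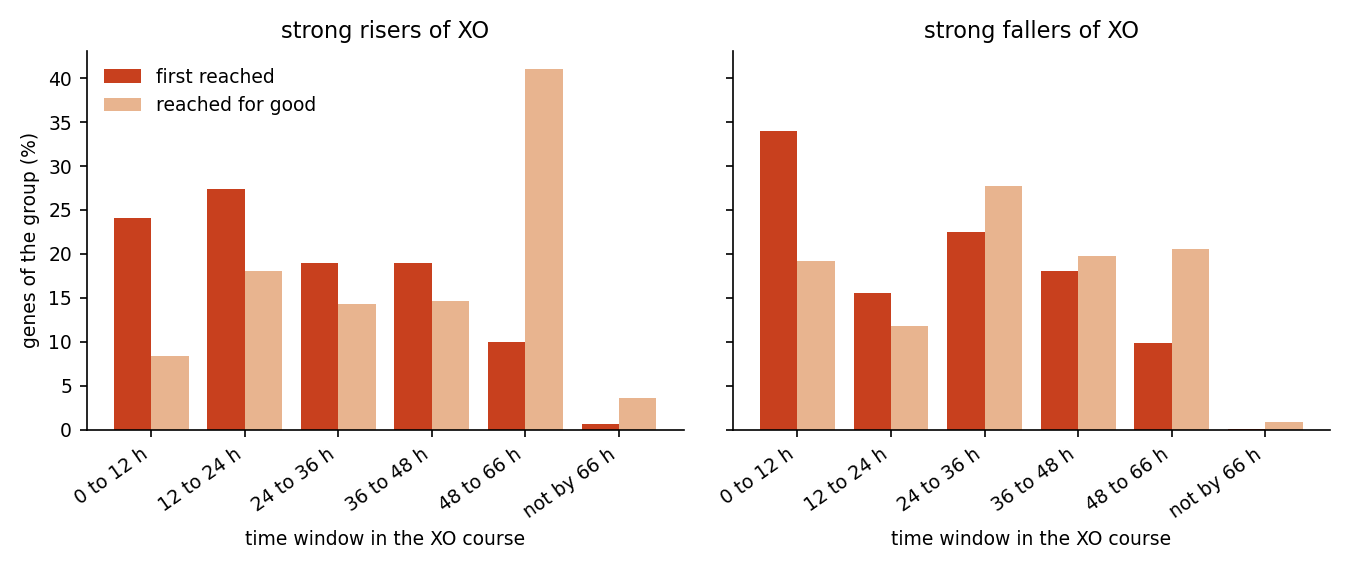
Percent of the 1749 strong risers and 855 strong fallers of XO that reached 50% of their late change in each window of the XO course. Dark bars count the first crossing and light bars the crossing after which the gene stayed beyond the mark up to 66 h. The first window holds 24.1% of risers and 34.0% of fallers by first crossing, and the light bars are highest at 48 to 66 h for risers (41.1%).

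The late cells were next compared with XO cells at 36 h, to see what changed in the second part of the course. Here 1721 genes were higher in late cells (7.57%) and 1008 lower (4.43%), 2729 in all (limma, adjusted p under 0.05). After centring 1354 were higher and 1384 lower. The genes that were higher late had a median rise of 0.93 after 36 h, beside a change of -0.062 between 0 and 36 h. Of them, 953 had moved by less than 0.5 log2 units in the first 36 h. Most genes of the array did so too: the all-gene quartiles at 36 h were -0.24 and 0.36 in array A. In array B they were -0.20 and 0.42. The genes that were lower late had a median change of -1.004 after 36 h, beside 0.45 before it, and 269 of the 1008 had first risen by at least 1 log2 unit. Of all 22745 genes, 1312 were higher by as much in 36 h array A than in 0 h array A. For the B arrays this number was 1571. Changes before and after 36 h share the 36 h arrays with opposite signs, so an error in those arrays moves both in opposite directions. By at least 2 log2 units 99 genes were higher and 113 lower than at 36 h.

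Of the 30 genes that rose by at least 4 log2 units, 14 were also called higher in late cells than at 36 h and 3 were called lower. Of the 33 that fell by as much, 22 were called lower than at 36 h and 0 higher. Of all genes, 7.57% were called higher than at 36 h and 4.43% lower. Both comparisons use the same late arrays, so the choice of these genes favours calls in the same direction. Median changes of the strong risers were 0.64 from 36 h to the late arrays and 0.87 from 0 to 36 h, and those of the strong fallers were -0.45 and -1.11. The 36 h count fell to 1374 without 36 h array A, to 1333 without array B and to 1387 when only the 5 compared arrays shared the spread.

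To learn whether genes that changed in XO cells also changed elsewhere, the same genes were read in XX and XY cells, each against its own 0 h arrays. The strong risers of XO had a median late change of 0.83 in XX (quartiles 0.33 and 1.46) and 1.31 in XY (0.75 and 2.09). In late XX cells 937 of the 1749 (53.6%) were called higher, where 8.13% of all genes were, and 19 were called lower. In late XY cells 1319 (75.4%) were called higher, beside 13.7% of all genes, and 10 lower. The strong fallers had median changes of -1.02 in XX cells and -1.67 in XY cells. Calls of a fall in late XX cells covered 557 of the 855 (65.1%), beside 7.76% of all genes, and in late XY cells 717 (83.9%), beside 11.6%. Across all genes the late change correlated at 0.653 between XO and XX and at 0.770 between XO and XY, lines that share no arrays.

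Choosing genes in a line favours large changes in that line, so the reverse choice was read too. The 988 genes that rose by at least 1 log2 unit in XX had a median change of 1.54 in XO and 1.51 in XX itself. The 1689 such genes of XY had 1.32 in XO and 1.53 in XY. For falling genes, the 851 of XX had a median change of -1.02 in XO and -1.47 in XX, and the 1440 of XY had -0.88 in XO and -1.53 in XY. After centring, the median in XO was 1.35 for the risers chosen in XX and -1.21 for the fallers chosen there, so no order between the lines is read from these medians.

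All 30 genes that rose by at least 4 log2 units in XO were called higher in XY and 27 in XX, and all 33 that fell by as much were called lower in XY and 31 in XX. Of all genes, 13.7% were called higher in XY and 8.13% in XX, and 11.6% were called lower in XY and 7.76% in XX. The median changes were 4.61 in XO, 3.20 in XX and 4.60 in XY for these risers. For fallers they were -4.67 in XO, -3.14 in XX and -4.73 in XY.

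The genes of each XO window were then read in the other lines, whose arrays played no part in setting the windows. The mean change of the 421 risers that reached 50% by 12 h in XO crossed its own 50% mark after 4.95 h in XO, 7.59 h in XX and 6.70 h in XY. For the 478 risers of the 12 to 24 h window these times were 19.4 h in XO, 22.2 h in XX and 18.1 h in XY. The 332 risers of the 24 to 36 h window crossed after 32.3 h in XO, 44.0 h in XX and 37.7 h in XY. Those of the 36 to 48 h window did so after 42.3 h in XO, 49.6 h in XX and 43.1 h in XY, and the 175 of the last window after 57.8, 60.1 and 61.0 h. The order of the riser windows was the same in the 3 lines, but in XX the 24 to 36 h and 36 to 48 h windows crossed after their ends. XY was sampled more sparsely and has no array between 32 and 48 h. Its 37.7 h is interpolated over that gap, so it cannot be placed before or after 36 h.

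Among fallers the windows up to 12 h, 24 to 36 h and 36 to 48 h crossed after 6.20, 30.7 and 41.3 h in XO and after 5.62, 33.0 and 46.1 h in XX. In XY these times were 7.84, 29.3 and 37.3 h. The 84 fallers of the last window had a median late change of -1.55 in XO, -0.16 in XX and -1.63 in XY, and 22 of them (26.2%) were called lower in XX, beside 7.76% of all genes. Their mean in XX gave no 50% time. The corresponding 175 risers had medians of 1.47 in XO, 0.57 in XX and 1.23 in XY. Fallers of the first window, in contrast, had medians of -1.34 in XO, -1.18 in XX and -1.61 in XY. These are medians over genes chosen in XO, and the difference between windows was not tested.

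The difference between lines was tested directly, as the late change of XO minus that of XX. It was higher in XO for 1047 genes (4.6%) and lower for 449 (1.97%), 1496 in all (limma, adjusted p under 0.05). After centring 634 were higher and 603 lower, and after quantile normalization 675 and 659. The 1047 genes had a median change of 0.89 in XO and -0.28 in XX. Of these, 341 moved the same way by more in XO, 123 the same way by less in XO, and 583 moved in opposite directions. The 449 genes had median changes of -1.14 in XO and 0.37 in XX. Of them, 171 moved the same way by more in XO, 74 by less and 204 in opposite directions. Direction was read from the sign alone, whatever the size of the change, and these counts were not repeated after centring.

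The lines also differed in level at 0 h. For the 1047 genes the median XO minus XX difference in level was 0.45 in late cells and -0.71 at 0 h, and 506 were within 0.5 log2 units of each other in late cells, against 344 at 0 h. For the 449 genes the median level difference was -0.99 in late cells and 0.41 at 0 h, with 109 within 0.5 in late cells and 228 at 0 h. At the median the first group began higher in XX, and it came closer together more often than it moved apart (646 genes against 401). The second group moved apart more often (303 genes against 146). The genes were called on the late minus the 0 h difference in these same levels, so these numbers describe the groups and test nothing. The count of called genes was 684 and 679 without XO 0 h array A or B, and 893 and 994 without XX 0 h array A or B. It was 974 without the XX 72 h array and 2287 without the XO 66 h array.

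Of the printed identifiers, ENSMUSG00000022425 averaged 9.91 ± 0.98 in late XO cells and 7.19 ± 0.79 in late XX cells (SD, n = 3 each). Its change was larger in XO by 2.79 (SE 0.65, limma adjusted p = 0.0202), a call that was lost without any of the 4 XO and XX arrays at 0 h. ENSMUSG00000042367 ended at 5.29 ± 0.37 in XO and 7.50 ± 0.50 in XX (SD, n = 3 each), and its XO minus XX difference in change was -2.06 (SE 0.44, limma adjusted p = 0.0136). This call was lost without XO 0 h array B (-1.97, limma adjusted p = 0.0630). The differences of ENSMUSG00000000805 (1.02, limma adjusted p = 0.0526) and ENSMUSG00000067299 (-0.57, limma adjusted p = 0.422) did not pass. That of ENSMUSG00000000805 passed under 5 alternatives, with limma adjusted p between 0.0348 and 0.0433, among them the fit of only the compared arrays and that without XX 0 h array A.

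Against XY, whose cells come from another line, fewer changes were called different. The late XY group has 2 arrays where that of XX has 3. The median standard error of the difference was 0.308 log2 units against XY and 0.294 against XX, so these counts do not rank the lines. The late change was higher in XO than in XY for 290 genes (1.28%) and lower for 137 (0.602%), 427 in all (limma, adjusted p under 0.05). After centring 199 were higher and 191 lower. The 290 genes had a median change of 0.27 in XO and -1.07 in XY, and the 137 genes 0.017 in XO and 1.46 in XY. These medians in XO lie between genes that moved both ways: 119 of the 290 were called higher and 54 lower in late XO cells than at 0 h, and of the 137 these numbers were 47 and 45, beside 17.8% and 7.62% of all genes. This count is unstable. It was 82 when only the compared arrays shared the spread, 188 and 156 without XO 0 h array A or B, 226 and 150 without XY 0 h array A or B, and 276 without the XO 72 h array. It was 249 without the XY 84 h array and 2079 without the XY 72 h array, where the late XY group is a single array that is assumed to vary like the others. The comparisons with XX and XY share the XO arrays, and the XY group has no 66 h array.

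ENSMUSG00000067299 was the printed identifier that differed between XO and XY. It fell by 6.55 in XO and by 1.59 in XY, where it started at 5.93 ± 0.48 and ended at 4.33 ± 0.13 (SD, n = 2 each), a difference of -4.95 (SE 0.39, limma adjusted p = 6.84e-05). The late means were 4.74 in XO and 4.33 in XY, while the 0 h means were 11.29 in XO and 5.93 in XY. The other 3 identifiers changed in XY by 6.68, 6.34 and -6.67, and their differences from XO did not pass (limma adjusted p between 0.398 and 0.823).

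**Figure D5:**
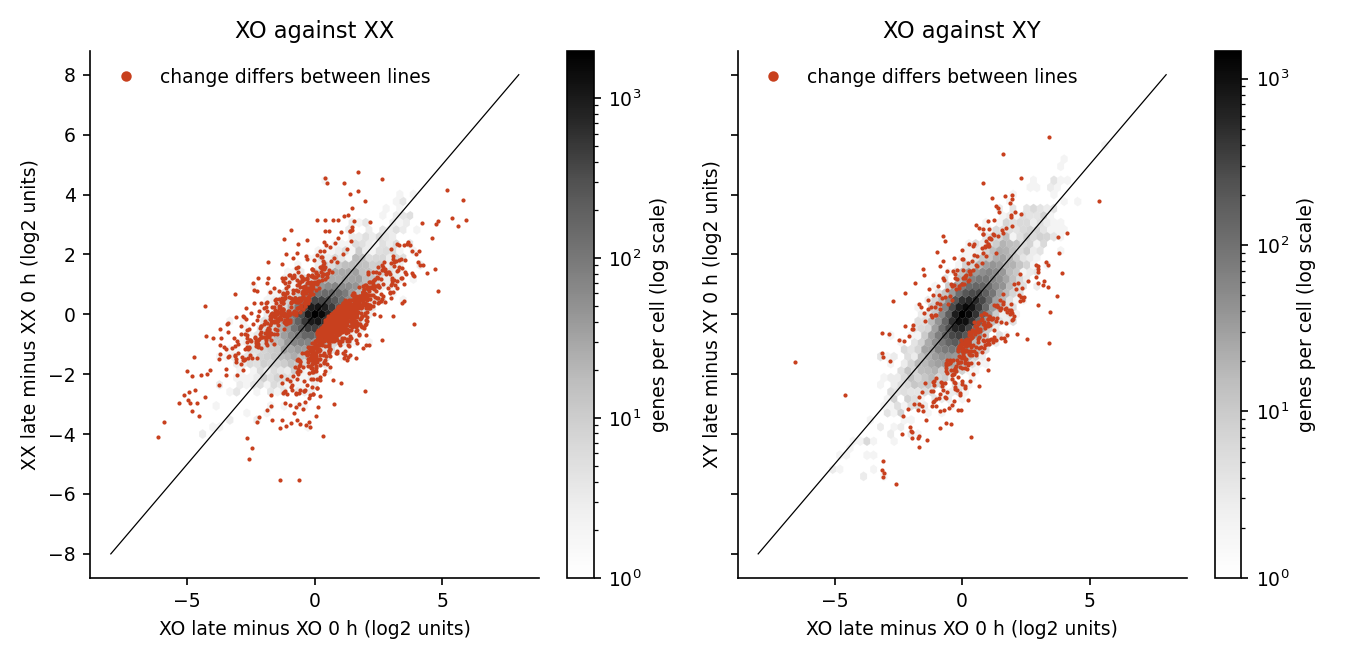
Late minus 0 h change of each gene in XO cells (horizontal axis, log2 units) against the change in XX or XY cells (vertical axis, log2 units). Grey cells show the number of genes on a log scale, on which a cell with 1 gene is white, and coloured points are genes whose change differed between the lines (1496 against XX, 427 against XY), and the diagonal marks equal change.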

How the data were processed

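RNA of the cells was hybridised to Affymetrix Mouse Exon 1.0 ST arrays. The authors deposited 1 log2 value per Ensembl gene and array, and the submitters' processing notes name RMA and affy. For the versions, the probe annotation and the build, nothing is stated in the sources used here. All 22745 genes entered each test. R 4.3.3 and limma 3.58.1 (lmFit, eBayes, two-sided, Benjamini-Hochberg over all genes, adjusted p under 0.05) were applied to 18 arrays in 8 groups, with 10 residual and 4.07 prior degrees of freedom. The groups were XO, XX and XY at 0 h, XO and XX at 36 h, and the late XO, XX (66, 72 and 84 h) and XY (72 and 84 h) arrays. The spread of a late group holds change with time as well as error. The fit was tested on simulated data. The 37 gene lists and the longer rule for named genes needed symbols and were left out. The printed identifiers are the 2 largest rises and falls past the threshold whose late and 0 h arrays do not overlap. The comparisons, groups and lists were chosen with earlier results of these data known. Strong risers and fallers, the windows and their readings in other lines were set after seeing the values.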

Additional observations from a re-analysis of the deposited data

Results flagged for a closer look

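The late change differed between lines by the test of the difference itself for 1496 genes between XO and XX and for 427 genes between XO and XY (limma, adjusted p under 0.05). Among the printed identifiers, ENSMUSG00000022425 rose more in XO than in XX by 2.79, and ENSMUSG00000042367 fell more in XO, with an XO minus XX difference of -2.06. Neither of these calls against XX held in every fit with a 0 h array left out. ENSMUSG00000067299 fell more in XO than in XY, with a difference of -4.95. Its 0 h means were 11.29 in XO and 5.93 in XY, while its late means were 4.74 and 4.33. Groups of arrays here held 2 or 3 samples, so single far-off samples were not tested for.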

How the results depend on the processing

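Scaling decided the balance of directions. Centring arrays on their medians turned the median change of all genes to -0.10 against 0 h, -0.075 against 36 h, -0.031 against XX and -0.031 against XY, and quantile normalization of the 18 arrays to -0.028, -0.012, -0.0012 and -0.012. The percent of called genes that were higher became 48.4 against 0 h and 49.5 against 36 h after centring. Counts with arrays left out ranged from 3640 to 6455 against 0 h, 1333 to 3586 against 36 h, 679 to 2287 for XO against XX and 150 to 2079 for XO against XY. With only the compared arrays in the fit they were 1387 against 36 h and 82 against XY. These fits hold fewer arrays, but the counts did not only fall. Without the XO 66 h array those against 0 h, 36 h and XX rose to 6455, 3586 and 2287. What moved the counts was not tested. With the letter A or B as a replicate block the 4 counts were 5166, 2203, 1271 and 362, and no count moved by over 1.5 times. The labels do not say what arrays of the same letter share. Differences A minus B correlated between -0.134 and 0.189 over the 5 duplicated conditions. The late XO arrays all carry the letter B, and the XO 0 h arrays carry A and B. Over 12 alternatives, the late against 0 h changes of the 4 identifiers kept their direction and call. The numbers of strong risers and fallers stayed within 1.5 times of 1749 and 855 in each of these alternatives. The planned counts over gene lists were not run. The dim filter left 15399 genes with a mean of at least 6 log2 units and 5286 calls against 0 h.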

Other observations

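The series holds 1 array of a commercial mouse reference RNA, which entered no comparison. Of the 1749 strong risers, 77.2% lay above that array in late XO cells and 36.0% at 0 h, while of all genes 63.4% did in late cells and 59.1% at 0 h. Of the 855 strong fallers, 47.3% lay above it in late XO cells and 82.5% at 0 h. The median difference from the reference array was 1.06 log2 units in late cells and -0.46 at 0 h for risers, and -0.074 in late cells and 1.58 at 0 h for fallers. The identifier ENSMUSG00000000805, at 12.65 in late XO cells, stood at 5.45 on the reference array, near its XO level at 0 h, whereas ENSMUSG00000022425 stood at 8.81 there. The array is a single one, so these are values with no test.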
